A study of Mus musculus with 91 samples.

Results

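Pparg, Cebpa, Cebpb, Srebf1, Srebf2, Mlxipl, Nr1h3 and Klf15 encode transcription factors known for switching on fat synthesis and fat cell differentiation. Their mRNAs were followed in epididymal white adipose tissue (EAT), mesenteric white adipose tissue (MAT) and liver. All probes that the annotation of the Illumina MouseWG-6 v2 array assigns to these 8 symbols were taken, which gave 14 probes of 45281 on the array and 8 genes of 19057 named. Pparg has 3 probes, Srebf1, Srebf2, Mlxipl and Nr1h3 have 2 each, and Cebpa, Cebpb and Klf15 have 1 each.

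Male C57BL/6J mice received a high-fat diet (HFD) built on AIN-76 with lard, corn oil and added cholesterol from 5 weeks of age. Their controls received the AIN-76 normal diet (ND), which all mice had also eaten during acclimation, and all mice were fasted before blood was drawn. EAT was measured after 2, 4, 8, 20 and 24 weeks in 3 RNA pools per diet, MAT at the same weeks in 1 pool per diet, and liver at these weeks and also after 6, 12 and 16 weeks in 3 arrays per diet, with 3 further arrays taken before the diets at 0 weeks. The mice were 5 weeks old at 0 weeks and 7 to 29 weeks old at the later times. Whether liver arrays are single mice or pools is not given in the sources used here, and p-values measure only the spread between arrays.

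SREBP-1c and SREBP-2, the products of Srebf1 and Srebf2, are held in the endoplasmic reticulum by Scap and the Insig proteins until sterol falls, then cut free to act on genes of fatty acid and of sterol synthesis. Insulin and the oxysterol receptor LXR-alpha, encoded by Nr1h3, raise transcription of Srebf1, while ChREBP, encoded by Mlxipl, answers to glucose. In the fat cell C/EBP-beta acts early in differentiation and brings on PPAR-gamma and C/EBP-alpha, which then hold each other up and drive the genes of lipid storage. Klf15 is a glucocorticoid- and fasting-induced factor of gluconeogenesis that also takes part in adipogenesis.

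Promoter windows of 300 bases, from 250 bases before a transcription start to 50 bases after it, were taken from RefSeq on the GRCm38.p6 build, in which all 8 symbols matched a gene and gave 14 windows. The Srebf1 and Srebf2 windows are shown because these related genes moved in opposite directions in HFD liver, and the Pparg window because the 3 Pparg probes did not move together in EAT. Capitals mark a sterol element core, searched on both strands as TCACCCNA, and a CCAAT box, searched on both strands as CCAAT and so also marked as ATTGG. These motifs were chosen after the sequences had been read.
Srebf1, chr11:60210422-60210721, minus strand: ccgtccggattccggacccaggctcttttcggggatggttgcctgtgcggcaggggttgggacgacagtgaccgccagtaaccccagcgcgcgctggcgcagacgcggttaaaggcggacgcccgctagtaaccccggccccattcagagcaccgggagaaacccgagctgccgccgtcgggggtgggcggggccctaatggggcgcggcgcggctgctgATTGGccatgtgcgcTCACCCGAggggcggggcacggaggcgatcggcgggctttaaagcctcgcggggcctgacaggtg
Srebf2, chr15:82147019-82147318, plus strand: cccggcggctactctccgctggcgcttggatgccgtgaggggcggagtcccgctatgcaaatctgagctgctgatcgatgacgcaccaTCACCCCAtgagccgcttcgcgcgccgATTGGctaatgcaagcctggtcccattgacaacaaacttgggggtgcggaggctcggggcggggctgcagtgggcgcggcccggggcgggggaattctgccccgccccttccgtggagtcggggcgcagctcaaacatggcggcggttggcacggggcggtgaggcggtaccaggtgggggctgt
Pparg, chr6:115421816-115422115, plus strand: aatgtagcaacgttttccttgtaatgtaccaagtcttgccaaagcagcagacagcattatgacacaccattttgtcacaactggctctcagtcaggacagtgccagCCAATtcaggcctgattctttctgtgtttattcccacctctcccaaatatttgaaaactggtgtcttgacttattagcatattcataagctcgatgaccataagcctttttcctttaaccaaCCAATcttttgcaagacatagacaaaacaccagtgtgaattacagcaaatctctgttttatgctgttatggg
The sterol element core was found in 2 of the 14 windows, those of Srebf1 and Srebf2 printed here, and both also hold a CCAAT box. It is held by 1230 of 32841 windows of this length in the table (3.75%). The CCAAT box was found in 7 of the 14 windows, against 37.4% of all windows. The E-box CACGTG, the same on both strands, was found in 2 windows, 1 of Mlxipl and 1 of Klf15, against 7.15% of all windows. A match describes letters in the window only. Srebf1 lies at chr11:60199084-60224186, Srebf2 at chr15:82147269-82205379, Pparg at chr6:115360879-115490404, Mlxipl at chr5:135089890-135139768, Nr1h3 at chr2:91184061-91202829, Cebpa at chr7:35119293-35121928, Cebpb at chr2:167688915-167690432 and Klf15 at chr6:90461043-90491803.

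Levels are normalized log2 intensities. The tissues were normalized separately and each probe has its own brightness, so levels are compared only within a probe and a tissue. In EAT and MAT 11 of the 14 probes were detected on every array, at a detection p under 0.05. Srebf1 ILMN_2696876 was detected on 0 of 30 EAT arrays and 0 of 10 MAT arrays, Klf15 on 24 and 7, and Pparg ILMN_1221893 on 30 and 9. The liver values carry no detection p. Summed over a marker list, hepatocyte genes averaged 11.91 to 12.63 on the liver arrays and adipocyte genes 11.65 to 12.19 on the EAT arrays. On MAT arrays the adipocyte list averaged 10.60 to 11.85 and exocrine pancreas genes 7.82 to 15.15. Liver HFD array 1 of 16 weeks correlated with its replicates at a mean of 0.973, against 0.984 to 0.997 for the other arrays, among which ND array 1 of 8 weeks, left out with it in 1 alternative, was at 0.985. The background of 9 EAT arrays, those of ND at 2 weeks and of both diets at 24 weeks, was a 5th percentile of intensity of 110 to 121, against 75.7 to 92.1 on the other 21.

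In the liver Srebf1 and Pparg were higher on the HFD and Srebf2 was lower. Srebf1 ILMN_2792089 and Pparg ILMN_1221060 were above the ND at all 8 weeks without overlap of a single array, as were 0.444% of all probes. The other Srebf1 probe was so at 1 week and the other Pparg probes at 5 and 4. In a single week 7.5% to 13% of all probes were. In the mean of the weeks Mlxipl was higher at 1 of its probes and Srebf2 was lower at both. Averaged over the 8 weeks, Srebf1 ILMN_2792089 was 1.77-fold higher and Pparg ILMN_1221060 1.36-fold higher, while Srebf2 was 1.15- and 1.17-fold lower at its probes. Of the 14 probes 6 were called higher in this mean effect at an adjusted p under 0.05 in limma, as were 7.22% of all probes, and 4 were called lower, as were 7.43%. Called higher were Srebf1 ILMN_2792089, all 3 Pparg probes, Mlxipl ILMN_1259035 and Nr1h3 ILMN_2663374. Called lower were both Srebf2 probes, Cebpa and Nr1h3 ILMN_2668472. The median over the 14 probes was 0.09, against -0.01 over all probes.

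**Figure D1:**
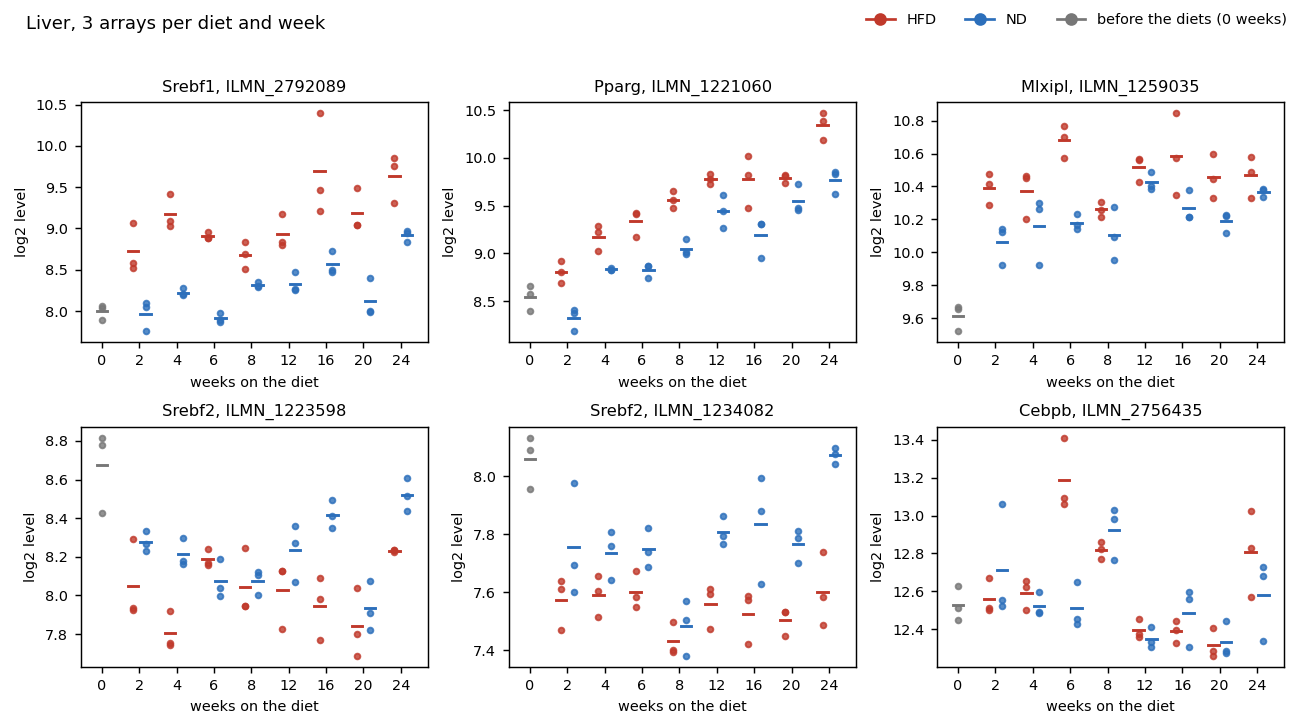
Log2 levels of 6 probes in liver by weeks on the diet, with HFD (red) left of ND (blue) at each week and the arrays before the diets in grey. Dots are single arrays and lines are the means of 3. The HFD arrays of Srebf1 and of Pparg lie above the ND arrays at all 8 weeks, and the Pparg level is higher at 24 weeks than at 2 weeks on both diets.

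Week by week the calls were few and uneven. The diet difference passed for 2 of the 14 probes upward (1.05% of all probes) and 1 downward (0.76%) in week 2, for 1 upward (1.56%) and 1 downward (1.08%) in week 4, and for 5 upward (3.98%) and 0 downward (3.45%) in week 6. It passed for 1 upward (2.19%) and 0 downward (1.42%) in week 8, and for none in week 12, when 0.711% of all probes were called higher and 0.446% lower. In week 16 it passed for 5 upward (3.45%) and 2 downward (2.67%), in week 20 for 1 upward (1.77%) and 0 downward (1.01%), and in week 24 for 2 upward (2.99%) and 1 downward (2.09%). In a given week the HFD arrays lay wholly above the ND arrays for 7.5% to 13% of all probes and wholly below for 7.87% to 13.3%. These were 17 calls higher and 5 lower in all. Of these 22 calls 7 kept an adjusted p under 0.05 when the first, the second and the third array of every group were left out in turn, and the calls that did not are named beside their genes.

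Srebf1, the lipogenic member of the SREBP pair, changed most among the members. Its probe ILMN_2792089 stood at 9.07, 8.52 and 8.58 on the HFD at 2 weeks, against 8.05, 7.76 and 8.09 on the ND. At 6 weeks it read 8.88, 8.96 and 8.88 on the HFD, against 7.97, 7.87 and 7.90 on the ND. At 16 weeks it read 10.39, 9.47 and 9.21 on the HFD, against 8.50, 8.73 and 8.47 on the ND. The highest value of the series is HFD array 1 of 16 weeks, the array that correlated least with its replicates, and the lowest HFD array was above the highest ND array at each of the 8 weeks, as for 0.444% of all probes. At 24 weeks the values were 9.75, 9.31 and 9.85 on the HFD, against 8.97, 8.95 and 8.84 on the ND. The log2 fold change passed in 6 of the 8 weeks, with 0.76 in week 2 (adjusted p = 0.00953), 0.95 in week 4 (0.00043), 0.99 in week 6 (8.96e-05), 1.12 in week 16 (1.97e-05), 1.06 in week 20 (7.91e-05) and 0.72 in week 24 (0.00666). The values of 0.36 in week 8 and 0.61 in week 12 did not pass (adjusted p = 0.314 and 0.0804). The mean effect was 0.82 ± 0.06 on the log2 scale (SE, 8 weeks of 3 against 3 arrays, adjusted p = 3.37e-14).

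The Srebf1 calls at 2, 4, 20 and 24 weeks did not pass with 2 arrays per group when the third array was left out, although all HFD arrays lay above all ND arrays at those weeks. The differences were then 0.89, 0.82, 0.85 and 0.57 (adjusted p = 0.0604, 0.0522, 0.0601 and 0.2), and without the second array the adjusted p was 0.169 at 2 weeks, whereas for the mean effect it was at most 2.96e-08 whichever array number was left out. The other Srebf1 probe, ILMN_2696876, lay between 6.60 and 6.81 in all liver group means and was not called at any week (mean effect 0.03, adjusted p = 0.626). It is the probe that no EAT or MAT array detected. The diet difference of ILMN_2792089 showed no trend with week (slope 0.0052 log2 units per week, 95% interval -0.0115 to 0.022, adjusted p = 0.855). Its level was higher at later weeks on both diets, by 0.0355 log2 units per week on the HFD and 0.0303 on the ND (adjusted p = 6.86e-06 and 0.000102, against 21.8% and 20.7% of all probes called for such a slope). The first principal component, the axis of greatest spread between liver arrays, held 27.7% of the variance. On the HFD it was 5.12 to 10 at 2 weeks, 28 to 30.8 at 8 weeks and -39.6 to -35.5 at 24 weeks. On the ND it was 6.36 to 10.8, 34.2 to 36.3 and -33.9 to -32.3. In a slope of the level, age and any other difference between the arrays of the weeks cannot be told apart.

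The genes whose levels ran closest to Srebf1 over the 48 liver arrays of mice on a diet, once the mean of each week was taken off, were Abcg5 (r = 0.94), Abcg8 (0.938) and Acsm5 (0.937). Abcg5 and Abcg8 form the transporter that sends sterol into bile, and Acsm5 encodes a medium-chain acyl-CoA synthetase. These values describe arrays that share the 2 diets and 1 normalization.

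Pparg, the master regulator of the fat cell, is faintly expressed in a lean liver. Its probe ILMN_1221060 stood at 8.80, 8.69 and 8.92 on the HFD at 2 weeks, against 8.37, 8.41 and 8.19 on the ND, and at 8.58, 8.66 and 8.40 before the diets. At 16 weeks it read 10.02, 9.48 and 9.83 on the HFD, against 9.31, 9.31 and 8.95 on the ND. At 24 weeks it read 10.47, 10.18 and 10.39 on the HFD, against 9.84, 9.62 and 9.86 on the ND. HFD arrays lay above ND arrays at all 8 weeks, as for 0.444% of all probes. The level itself was higher at later weeks at nearly the same pace on both diets, by 0.0551 log2 units per week on the HFD and 0.0544 on the ND (adjusted p = 7.56e-16 and 1.82e-15), so that HFD livers of 8 weeks averaged 9.56 ± 0.09 and ND livers of 24 weeks 9.77 ± 0.13 (SD, n = 3 each). As for Srebf1, age and other differences between the arrays of the weeks cannot be told apart in these slopes. The diet difference showed no trend with week (slope 0.0007, 95% interval -0.0097 to 0.011, adjusted p = 0.978).

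The Pparg log2 fold change passed in week 2 (0.48, adjusted p = 0.00733), week 6 (0.51, 0.0011), week 8 (0.51, 0.00174), week 16 (0.58, 0.000281) and week 24 (0.57, 0.000305). The values of 0.34 in week 4, 0.34 in week 12 and 0.24 in week 20 did not pass (adjusted p = 0.0851, 0.146 and 0.335). The mean effect was 0.45 ± 0.04 (SE, adjusted p = 1.47e-12). The calls at 6 and 24 weeks kept their side of the threshold with each array number left out. Without the third array of every group the adjusted p was 0.376 in week 2, 0.105 in week 8 and 0.0599 in week 16, and without the first it was 0.0564 in week 2. The other probes, ILMN_1221594 and ILMN_1221893, had liver group means of 6.97 to 7.58 and 6.79 to 7.26, near the liver array median of 7.04. Their mean effects were 0.15 and 0.12 (adjusted p = 0.000272 and 0.000297), and each probe was called at 16 weeks only, by 0.29 in both cases. Both of these calls were lost when array numbers were left out of every group in turn (highest adjusted p = 0.495 and 0.459). Leaving out HFD array 1 of 16 weeks and ND array 1 of 8 weeks also ended both, at 0.21 and 0.20 (adjusted p = 0.317 and 0.119).

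The 3 genes closest to Pparg ILMN_1221060 over the 48 arrays were Sirpa (r = 0.908), a receptor of myeloid cells, Axl (0.905), a receptor for dying cells on phagocytes, and Cyth4 (0.899), a cytohesin of blood cells. Macrophage markers moved with the diet in the same livers. In the mean effect 9 of 10 were called higher, with a median of 0.66, beside 7.22% of all probes. Of 5 Kupffer cell markers 4 were called higher, with a median of 0.36. The macrophage list averaged 9.06 to 9.24 on HFD arrays of 24 weeks, against 8.16 to 8.23 on ND arrays. On the ND its mean was 8.89 at 2 weeks and 8.20 at 24 weeks, whereas Pparg was at 8.32 and 9.77. Of 8 adipocyte markers 2 were called higher in liver, Cidec (0.48) and Aqp7 (0.14), while Adipoq differed by -0.01 and Fabp4 by 0.00 (adjusted p = 0.923 and 0.976), and the list averaged 7.07 to 7.51 over all liver arrays. The part of macrophages in the Pparg difference was not tested, and in whole tissue a change in the number of cells of a type cannot be told apart from a change in RNA per cell.

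Srebf2, the member that drives sterol synthesis and is itself under sterol control, ran the other way. Probe ILMN_1223598 read 7.77, 8.09 and 7.98 on the HFD at 16 weeks, against 8.41, 8.49 and 8.35 on the ND. Probe ILMN_1234082 read 7.74, 7.49 and 7.58 on the HFD at 24 weeks, against 8.10, 8.04 and 8.08 on the ND. In both cases all HFD arrays were below all ND arrays, as for 7.87% of all probes at 16 weeks and 12.2% at 24 weeks. Such a gap held at 3 weeks for ILMN_1223598 and at 5 weeks for ILMN_1234082. ILMN_1223598 was called lower at 4 weeks (-0.41, adjusted p = 0.0161) and 16 weeks (-0.47, 0.00218), and ILMN_1234082 at 16 weeks (-0.31, 0.0111) and 24 weeks (-0.47, 6.33e-05). The 4-week call was lost without the second or the third array of every group (adjusted p = 0.241 and 0.223), and the 16-week call of ILMN_1234082 without the first or the second (0.134 and 0.169). The mean effects were -0.20 ± 0.04 and -0.23 ± 0.03 (SE, adjusted p = 3.98e-05 and 2.15e-08).

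ILMN_1234082 was lower on the HFD at all 8 weeks, as were 2.64% of all probes. It was the 1 member whose diet difference had a slope with week, of -0.0132 per week (adjusted p = 0.0359), as 1.25% of all probes had downward and 2.6% upward. No member had a called slope without the first or the second array of every group. The HFD level of ILMN_1234082 had a slope of -0.000549 per week (adjusted p = 0.923), and its ND level had one of 0.0127 (0.000345). Here too age and other differences between the arrays of the weeks cannot be told apart. Before the diets its arrays stood at 8.13, 8.09 and 7.96 and those of ILMN_1223598 at 8.43, 8.78 and 8.82.

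Mlxipl was higher on the HFD in the mean effect at ILMN_1259035, and its other probe had the same sign but did not pass. Mlxipl ILMN_1259035 read 10.70, 10.76 and 10.57 on the HFD at 6 weeks, against 10.17, 10.14 and 10.23 on the ND. On the HFD it lay wholly above the ND in that week, as did 13% of all probes. It was higher in group mean at all 8 weeks, as were 3.46% of all probes, with a mean effect of 0.25 ± 0.03 (SE, adjusted p = 2.3e-07), and was called at 6 weeks (0.50, adjusted p = 0.000348) and 16 weeks (0.32, 0.0353). The 6-week call was lost without the second array of every group (adjusted p = 0.0649). The 16-week call was lost without the first or the second array (0.658 and 0.217), and the difference was 0.19 (adjusted p = 0.398) without HFD array 1 of 16 weeks and ND array 1 of 8 weeks. The other probe, ILMN_2992232, had a mean effect of 0.11 that did not pass (adjusted p = 0.178). The 0-week mean was the lowest of all liver groups at both probes, with 9.61 ± 0.08 for ILMN_1259035 and 11.47 ± 0.07 for ILMN_2992232 (SD, n = 3 each).

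The Nr1h3 probes disagreed in direction. ILMN_2663374 had a mean effect of 0.11 (adjusted p = 0.00119) and ILMN_2668472 one of -0.14 (0.0105), so that no direction is given for the gene. In week 6, the 1 week in which ILMN_2663374 was called, it read 11.98, 12.10 and 11.94 on the HFD, against 11.67, 11.58 and 11.67 on the ND (0.37, adjusted p = 0.000262). Without the second array of every group the adjusted p was 0.0651 at 6 weeks and 0.104 for the mean, and for the mean of ILMN_2668472 it was 0.0962, or 0.0677 without the third.

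Cebpb and Klf15 were each called at 1 week and Cebpa at none. Cebpb, an early factor of adipogenesis that also answers to acute-phase signals in liver, read 13.06, 13.41 and 13.09 on the HFD at 6 weeks, against 12.45, 12.65 and 12.43 on the ND. All HFD arrays were above all ND arrays, as for 13% of all probes in that week. The difference of 0.68 passed (adjusted p = 3.31e-05), also with each array number left out. At the other 7 weeks Cebpb was not called, and the diet effect differed between weeks (F-test, adjusted p = 0.00505, 5.37% of all probes called). Klf15 read 7.75, 7.43 and 7.93 on the HFD at 2 weeks, against 8.34, 8.26 and 8.28 on the ND, a difference of -0.59 (adjusted p = 0.00629). This call was lost whichever array number was left out (adjusted p = 0.0506 to 0.127). Cebpa had a mean effect of -0.21 (adjusted p = 0.026), and no week was called. Its greatest difference was at 8 weeks, when it averaged 9.93 ± 0.08 on the HFD, against 10.56 ± 0.31 on the ND (SD, n = 3 each). All HFD arrays were below all ND arrays, as for 9.36% of all probes in that week. The Cebpa mean effect was lost whichever array number was left out (adjusted p = 0.0539 to 0.161).

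Known targets of these factors were counted beside them in liver, with 1 probe per gene and the mean effect of the 8 weeks. Of all probes 7.22% were called higher in this mean effect and 7.43% lower. Known sterol-synthesis targets of SREBP-2 were lower for 15 of the 16 measured and higher for 0, with a median of -0.66, led by Fdps (-1.83), Sqle (-1.39) and Stard4 (-1.14), which act in isoprenoid synthesis, squalene oxidation and sterol transport. Known lipogenic targets of SREBP-1c, ChREBP or LXR were lower for 11 of 17 and higher for 1, with a median of -0.35, although the Srebf1 mRNA itself was higher. Acacb (-1.44), a carboxylase that makes malonyl-CoA at the mitochondrion, Fads1 (-0.92), a fatty acid desaturase, and Acss2 (-0.91), an acetyl-CoA synthetase, differed most. Fasn and Scd1 did not pass (-0.07 and 0.02). The median over all probes was -0.01.

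LXR targets were called higher for 4 of 10 and lower for 1, beside 7.22% and 7.43% of all probes. Abcg5 (1.18) and Abcg8 (0.99) were higher, and Pltp (-0.69), which transfers phospholipid between lipoproteins, was lower. Fat cell targets of PPAR-gamma were higher for 5 of 17 and lower for 2, led by Plin4 (2.00) and Cidea (1.63), proteins of the lipid droplet, and Lpl (1.56), the lipase of lipoproteins. Glucose-responsive genes tied to ChREBP were lower for 5 of 7 and higher for 0, led by Fgf21 (-0.64), a fasting hormone, G6pc (-0.44), the last enzyme of gluconeogenesis, and Rgs16 (-0.39). Of the SREBP processing genes 2 of 5 were lower, Insig1 (-0.42) and Scap (-0.17). Pklr is counted in the lipogenic and the glucose-responsive list, and Insig1 in the sterol and the processing list.

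Of the dimer partners, coregulators and relatives 2 of 13 were higher and 3 lower, beside 7.22% and 7.43% of all probes. The 3 lower were the coactivator genes Lpin1 (-0.63) and Ppargc1a (-0.44) and the receptor gene Rxrb (-0.19). Of 17 other regulators of adipogenesis 4 were higher and 0 lower, with Egr2 (0.48), Stat5a (0.21) and Klf2 (0.15) in front. Of 7 genes raised by glucocorticoid or fasting, as Klf15 is, 1 was higher and 3 lower: Fkbp5 (-0.34), Per1 (-0.27) and Tsc22d3 (-0.21).

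**Figure D2:**
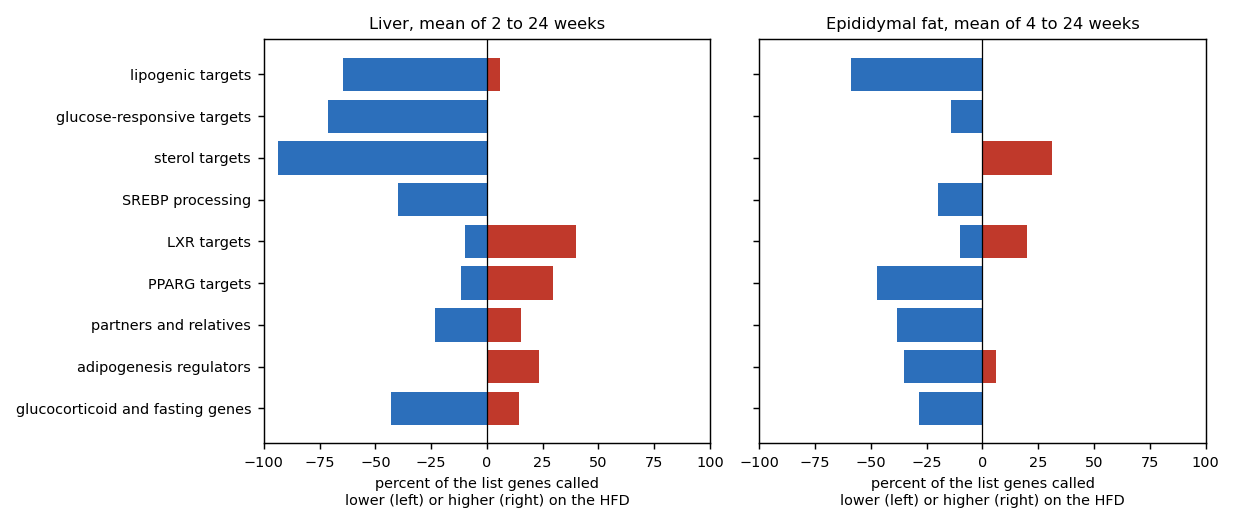
Percent of the measured genes of each list that were called lower (blue, left) or higher (red, right) on the HFD in the mean effect, in liver (2 to 24 weeks) and in EAT (4 to 24 weeks). In liver 15 of 16 sterol targets were called lower, whereas in EAT 5 were called higher and 0 lower.

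In EAT, from 4 weeks on, members were called at 8 and 24 weeks only, and the 2-week differences are given apart, with the array backgrounds. Mlxipl, Pparg and Srebf1 were lower at 24 weeks, by 1.66-, 1.64- and 1.43-fold at their strongest probes, and Cebpb and Srebf2 ILMN_1223598 were higher by 1.34- and 1.35-fold. Of the 14 probes 2 were called higher at 24 weeks, as were 5.99% of all probes, and 4 lower, as were 4.51%. In week 8 the difference passed for 0 upward (0.517% of all probes) and 1 downward (0.192%). No member was called in week 4, when 0.272% of all probes were called higher and 0.139% lower, or in week 20, with 3.85% and 3.54%. The HFD pools lay wholly below the ND pools for 11.5% of all probes in week 8 and 12.7% in week 24, and wholly above for 10.7% and 13.2%. In the mean of 4 to 24 weeks 2 were higher (5.81%) and 3 lower (5.68%), and the median over the 14 probes was -0.13.

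**Figure D3:**
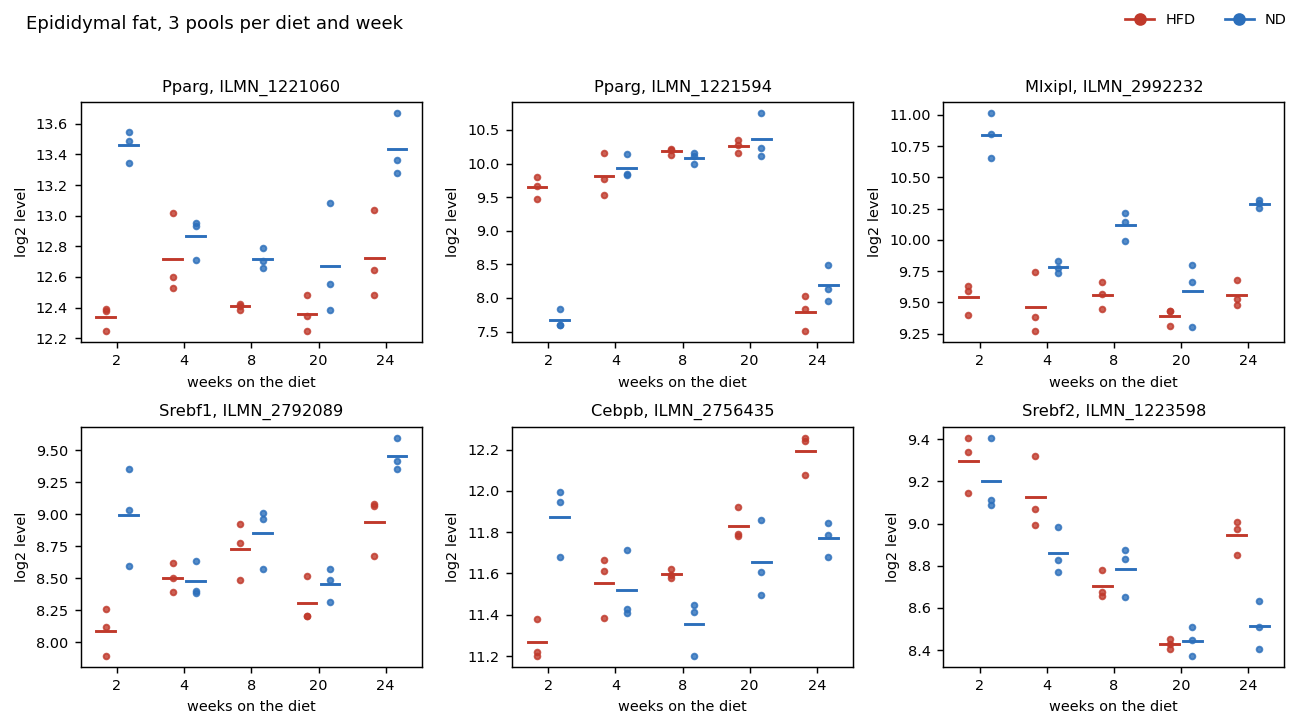
Log2 levels of 6 probes in EAT by weeks on the diet, with the 3 HFD pools (red) left of the 3 ND pools (blue) at each week and lines at the means. Mlxipl and Srebf1 are lower and Cebpb and Srebf2 higher in HFD pools at 24 weeks without overlap, and Pparg ILMN_1221594 reads 7.51 to 8.49 on the 9 arrays of high background, against 9.47 to 10.75 on the other 21.

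Mlxipl was the member that differed most often. ILMN_2992232 read 9.48, 9.68 and 9.53 in HFD pools at 24 weeks, against 10.25, 10.30 and 10.32 in ND pools. At 8 weeks it read 9.57, 9.66 and 9.44 in HFD pools, against 9.99, 10.15 and 10.21 in ND pools. HFD pools were below ND pools at both weeks without overlap, while at 20 weeks HFD pools of 9.43, 9.44 and 9.31 overlapped with ND pools of 9.80, 9.66 and 9.30. The difference was -0.73 at 24 weeks (adjusted p = 8.22e-05), -0.56 at 8 weeks (0.0211) and -0.45 ± 0.06 in the mean (SE, adjusted p = 4.42e-06). The 24-week call and the mean passed with each pool number left out, whereas the 8-week call was lost without the second or the third pool of every group (adjusted p = 0.434 and 0.324). ILMN_1259035 differed by -0.43 at 24 weeks (adjusted p = 0.00301) and -0.19 in the mean (0.00631), and both were lost without the second or the third pool (adjusted p = 0.118 to 0.316).

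Pparg ILMN_1221060 read 12.65, 13.04 and 12.48 in HFD pools at 24 weeks, against 13.36, 13.28 and 13.67 in ND pools. The highest HFD pool was below the lowest ND pool, and the difference of -0.72 passed (adjusted p = 0.00192), as did the mean of -0.37 (0.00109). Without the third pool of every group these were -0.48 and -0.31 and did not pass (adjusted p = 0.161 and 0.0577). The other Pparg probes did not pass in the mean (-0.14 and -0.19, adjusted p = 0.38 and 0.067). Srebf1 ILMN_2792089 read 9.08, 9.06 and 8.68 in HFD pools at 24 weeks, against 9.42, 9.36 and 9.59 in ND pools. All HFD pools were below all ND pools, by -0.52 (adjusted p = 0.0389), a call that was lost without the second or the third pool (0.152 and 0.376), with normexp (0.0579), with the replicate number as a block (0.0524) and with the week fitted alone (0.0576).

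Cebpb went the other way. It read 12.26, 12.24 and 12.08 in HFD pools at 24 weeks, against 11.85, 11.79 and 11.68 in ND pools. Srebf2 ILMN_1223598 read 9.01, 8.85 and 8.98 in HFD pools, against 8.63, 8.51 and 8.40 in ND pools. Both were higher in every HFD pool of that week. The differences were 0.42 and 0.43 (adjusted p = 0.00667 and 0.00262), and in the mean they were 0.22 and 0.15 (0.00422 and 0.0361). The Cebpb call at 24 weeks was lost without the second or the third pool (adjusted p = 0.0521 and 0.0827) and its mean without the first (0.0854), and Srebf2 was lost at 24 weeks without the third (0.162) and in the mean without the first or the third (0.0734 and 0.422). Scaling the arrays by their median in place of quantiles gave Cebpb 0.23 at 24 weeks (adjusted p = 0.354) and Srebf2 0.35 (0.0548). Cebpa, both Nr1h3 probes and Klf15 were not called from 4 weeks on, with Cebpa at -0.27 in the mean (adjusted p = 0.139).

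Marker lists moved at the same weeks. All 10 macrophage markers were called higher in HFD pools at 24 weeks, with a median of 1.17, beside 5.99% of all probes. The list averaged 10.63 to 10.75 in HFD pools, against 9.56 to 9.63 in ND pools. At 20 weeks, when no member was called, the list averaged 11.41 to 11.50 in HFD pools, against 9.93 to 10.40 in ND pools. Of 8 adipocyte markers 4 were called lower at 24 weeks, beside 4.51% of all probes, and 0 higher, with a median of -0.40. The adipocyte markers averaged 11.65 to 11.96 in HFD pools, against 12.08 to 12.16 in ND pools. Their part in the differences of Pparg, Mlxipl, Srebf1 and Cebpb was not tested. At 4 weeks a list of epididymis genes averaged 7.63, 12.44 and 14.35 in the HFD pools, against 7.96, 10.20 and 9.49 in the ND pools, and the hepatocyte list averaged 9.61 to 10.47 on the 8-week arrays of both diets, against 6.69 to 8.90 on the other EAT arrays.

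At 2 weeks 3 member probes were called higher in EAT, as were 14.5% of all probes, and 8 lower, as were 21.7%. In these samples the ND arrays belong to those of high background and the HFD arrays do not, so that diet and array set cannot be told apart. Pparg ILMN_1221060 read 12.38, 12.25 and 12.39 in HFD pools, against 13.55, 13.34 and 13.48 in ND pools. ILMN_1221594 read 9.47, 9.66 and 9.80 in HFD pools, against 7.59, 7.59 and 7.83 in ND pools. The differences were -1.12 and 1.97, of opposite sign with no overlap, in a week when 29.7% of all probes lay wholly below and 18.7% wholly above (adjusted p = 2.18e-06 and 1.05e-09), and ILMN_1221893 differed by 0.62 (0.000718). On the 9 arrays of high background ILMN_1221594 read 7.51 to 8.49 and ILMN_1221893 7.37 to 8.05, against 9.47 to 10.75 and 8.06 to 9.60 on the other 21. Between ND pools alone, the 24-week mean minus the 20-week mean was 0.76 for ILMN_1221060, -2.17 for ILMN_1221594 and -1.25 for ILMN_1221893.

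The other 2-week differences were -1.07 and -1.30 for Mlxipl, -0.90 for Srebf1 ILMN_2792089, -0.69 for Cebpa, which did not pass without the second or the third pool of every group (adjusted p = 0.182 and 0.0935), -0.61 for Cebpb, -0.41 for Nr1h3 ILMN_2663374 and -0.35 for Srebf2 ILMN_1234082. Srebf1 ILMN_2696876 was called higher by 0.21 although no EAT array detected it, and did not pass without the first or the second pool (0.209 and 0.366). The diet effect differed between weeks for 10 of the 14 probes (29% of all probes called). With the 2-week difference left out of the F-test, in the same fit of all EAT arrays, it did so for 2 (5.79%). These were Mlxipl ILMN_1259035 (adjusted p = 0.0373) and Srebf2 ILMN_1223598 (0.04). At 24 weeks both diets lie on arrays of high background.

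In EAT at 24 weeks the target genes of fat synthesis and storage that passed were all lower. Of all probes 5.99% were called higher in that week and 4.51% lower. Lipogenic targets were called lower for 9 of 17 and higher for 0, with a median of -0.51, against -0.0027 over all probes. Acss2 (-1.75), Elovl6 (-1.62), a fatty acid elongase, and Thrsp (-1.49), a lipogenic cofactor, differed most. Fat cell targets of PPAR-gamma were lower for 7 of 17 and higher for 0, led by Slc2a4 (-1.02), the insulin-responsive glucose carrier and Retn (-0.86), the gene of resistin. Cidea, at -1.05, did not pass (adjusted p = 0.311). Sterol targets were called higher for 3 of 16 and lower for 1 at 24 weeks. In the mean of 4 to 24 weeks 5 were higher (5.81% of all probes) and 0 lower (5.68%). The 5 were led by Msmo1 (0.49), Hsd17b7 (0.34) and Lss (0.27), enzymes late in cholesterol synthesis.

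Of 10 LXR targets 2 were higher and 0 lower at 24 weeks, beside 5.99% and 4.51% of all probes. The 2 were Pltp (1.28) and Abcg1 (0.65), a sterol exporter of macrophages. Of the partners and relatives 4 of 13 were lower, including Lpin1 (-0.92), Ppargc1b (-0.50) and Rxra (-0.49), the partner with which PPAR-gamma binds DNA. Of 17 regulators of adipogenesis 5 were lower, including Gata2 (-0.62) and Ebf1 (-0.54), and 1 was higher, Egr2 (1.76), which is also expressed in immune cells. Among the remaining lists Khk (-0.58), Insig2 (-0.65) and Zbtb16 (-0.76) were lower and Pdk4 (1.04), a brake on glucose oxidation, was higher.

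In MAT a single pool per diet and week leaves the weekly differences without a test. Srebf1 ILMN_2792089 read 8.74 in the HFD pool of 24 weeks, against 10.35 in the ND pool. Mlxipl ILMN_2992232 read 9.71 in the HFD pool, against 11.09 in the ND pool, and ILMN_1259035 read 8.37 against 9.61. Pparg ILMN_1221060 read 12.00 in the HFD pool, against 12.91 in the ND pool. At 24 weeks 12 of the 14 probes were lower in the HFD pool, with a median of -0.30, against -0.005 over all probes. In weeks 2, 4, 8 and 20 the number lower was 8, 7, 6 and 9. At 24 weeks 3 were more than 2-fold lower, as were 0.846% of all probes, and 0 more than 2-fold higher, as were 1.21%. These 3 were Srebf1 (-1.62) and Mlxipl (-1.24 and -1.38), with Pparg at -0.91 and Cebpa at -0.86 next. At 2 weeks Mlxipl ILMN_2992232 (-1.05) was more than 2-fold lower, as were 0.819% of all probes, and no member was more than 2-fold higher, as were 1.59%. The background of that week was 81.3 for the HFD pool and 108 for the ND pool, as a 5th percentile of intensity, so that here too diet and array background cannot be told apart. The Pparg probes differed by -0.48, 0.66 and 0.67 in that week. No member was past 2-fold in week 4 (0.464% of all probes higher, 0.0309% lower), week 8 (0.13% and 0.665%) or week 20 (0.0751% and 0.57%).

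Over the 5 weeks together, with week as a block, limma called 0 of the 14 member probes in MAT and 0% of all 45281 at an adjusted p under 0.05. At an unadjusted p under 0.05, which 5.93% of all probes passed, stood 3 of the 14. Cebpb had a mean difference of -0.20 and was lower at 4 of 5 weeks. Mlxipl ILMN_1259035 had one of -0.50 and was lower at 4 of 5, and Srebf2 ILMN_1234082 had one of -0.14 and was lower at 5 of 5. Without the 2-week pools the mean differences were -0.18, -0.38 and -0.15, and no member probe was called. Lipogenic targets had a median of -1.21 at 24 weeks, with 10 of 17 more than 2-fold lower, among them Elovl6 (-4.81), Acss2 (-3.95) and Acly (-3.55), the enzyme that makes cytosolic acetyl-CoA. At 8 weeks the median of this list was 0.13. The MAT pools held unequal amounts of other tissue. Intestinal genes averaged 11.79 in the HFD pool of 24 weeks and 9.17 in the ND pool, skeletal muscle genes 7.51 in the HFD pool of 2 weeks and 12.02 in the ND pool, and pancreas genes up to 15.15, in the ND pool of 2 weeks. Their part in the member differences was not tested. The adipocyte list averaged 11.22 in the HFD pool and 11.39 in the ND pool at 24 weeks.

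**Figure D4:**
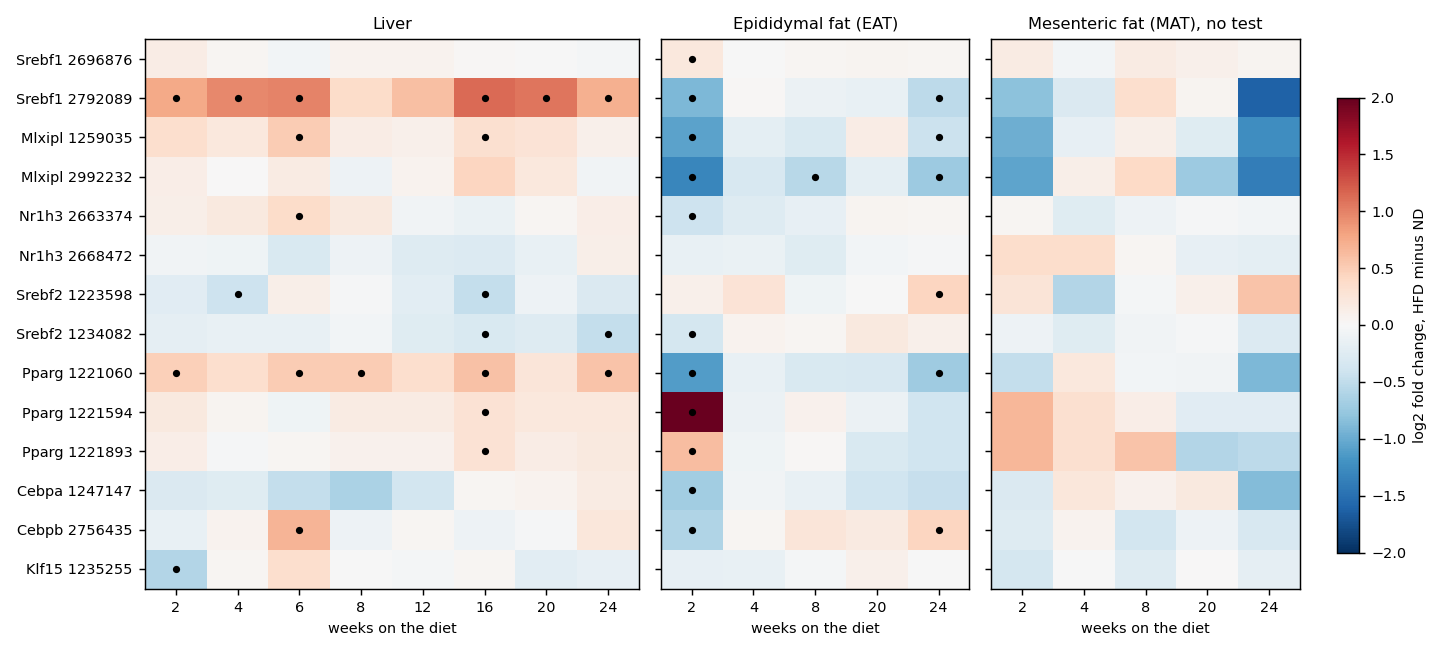
Log2 fold change, HFD minus ND, of the 14 probes (rows, with the digits of their probe names) by weeks on the diet in liver, EAT and MAT, red where higher on the HFD and blue where lower. A black dot marks an adjusted p under 0.05, and MAT has no test. Srebf1 ILMN_2792089 is red at all liver weeks and blue at 24 weeks in EAT and MAT, at 0.72, -0.52 and -1.62. At 8 weeks it is -0.12 in EAT and 0.34 in MAT, and at 20 weeks -0.15 and 0.05.

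Side by side at 24 weeks, Srebf1 ILMN_2792089 differed by 0.72 in liver, -0.52 in EAT and -1.62 in MAT, and Pparg ILMN_1221060 by 0.57, -0.72 and -0.91. Srebf2 ILMN_1223598 differed by -0.29 in liver, which was not called, 0.43 in EAT and 0.57 in MAT. The other Srebf2 probe, ILMN_1234082, differed by -0.47, 0.11 and -0.27, and was called in liver and not in EAT. Mlxipl ILMN_2992232 differed by -0.07 in liver, -0.73 in EAT and -1.38 in MAT. At 4, 8 and 20 weeks Srebf1 ILMN_2792089 differed by 0.03, -0.12 and -0.15 in EAT and by -0.29, 0.34 and 0.05 in MAT. Pparg ILMN_1221060 differed by -0.15, -0.31 and -0.32 in EAT and by 0.22, -0.05 and -0.07 in MAT at those weeks. The 24-week calls of Srebf1 in liver and EAT and of Pparg in EAT were lost when array numbers were left out in turn. MAT had 1 pool per diet and no weekly test. The difference between tissues was not tested.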

How the data were processed

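Per the labels, RNA was hybridised to Illumina MouseWG-6 v2 arrays, and the submitters' processing notes name BeadStudio 3.1.3 and R 2.4.1. The authors deposited an intensity and a detection p-value of each probe for the fat arrays, and recomputing quantile normalized log2 intensities from them gave the values used here. These came within 0.00112 of the deposited log2 values. The liver values are log2 intensities as the authors deposited them, already normalized. Probe symbols came from the platform table, in which 34885 probes have 1 symbol, 18 several and 10378 none. The 8 genes and the lists of targets and markers were chosen with earlier results of these data known.

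limma 3.58.1 in R 4.3.3 fitted 1 linear model per tissue over all 45281 probes, with a group for each diet and week. P-values were adjusted by Benjamini-Hochberg over all probes, and a call is an adjusted p under 0.05. The mean effect averages the weekly differences (4 to 24 weeks in EAT, without 2 weeks for the background given above). In MAT week was a block. No value was filtered. Lists used 1 probe per gene, that of the highest mean. All members are named, and of each list up to 3 genes with the largest absolute differences. Fasn, Scd1, Cidec, Aqp7, Adipoq and Fabp4 were named after their values were seen. The genes most like a member had the highest Pearson r to it in liver. Probe values were not merged within a gene. Promoter sequences are RefSeq's. A setting without 2 liver arrays (1 of which lies inside the range of the others) and a setting without 2 EAT pools with epididymis transcripts were chosen after seeing the data. Other alternatives were median scaling, normexp, array weights, each week fitted alone, each array number left out and the replicate number as a block. The method was tested on simulated data. The number of arrays limits the precision.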

Additional observations from a re-analysis of the deposited data

Results flagged for a closer look

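The diet effect differed between weeks, by an F-test over the weekly differences in limma with adjustment over all probes, for the following members. In liver these were Cebpb (adjusted p = 0.00505), Nr1h3 ILMN_2663374 (0.00821) and Klf15 (0.0346). Cebpb was called in week 6 (0.68), Nr1h3 in week 6 (0.37) and Klf15 in week 2 (-0.59), and no other week was called for any of the 3. None of the 3 passed this test whichever array number was left out of every group.

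In EAT Pparg passed at each probe, ILMN_1221060 (adjusted p = 0.00518), ILMN_1221594 (1.01e-07) and ILMN_1221893 (0.0013). Mlxipl passed at ILMN_1259035 (3.29e-06) and ILMN_2992232 (9.1e-05), and Srebf2 at ILMN_1223598 (0.0196) and ILMN_1234082 (0.00262). Cebpb (5.53e-05), Srebf1 ILMN_2792089 (0.0138) and Nr1h3 ILMN_2663374 (0.0357) passed too. Cebpb was lower at 2 weeks (-0.61) and higher at 24 weeks (0.42). The 2-week difference of these 10 probes sets HFD arrays of low background against ND arrays of high background, and diet and array set cannot be told apart there. With the difference of that week left out of the test Mlxipl ILMN_1259035 and Srebf2 ILMN_1223598 passed, and the other 8 did not.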

How the results depend on the processing

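No result reversed under any alternative, and the 0 calls in MAT held under each one run there. Of the values of single probes 485 stayed on their side of the threshold and 75 did not pass. In liver, median centring and repeated quantile normalization changed no call. The deposited liver values were already normalized to a common median, so that these settings could change little. Each gave 32 of the 485 values, and the deposited EAT values, which nearly equal those used here, gave 23. The liver calls lower by week, 5, were 9 with array weights and 9 with each week fitted alone, and the probe with a slope, 1, became 2 with array weights. In EAT from 4 weeks on, the 2 weekly calls higher were 1 with median scaling and 4 with array weights, and the 5 lower were 8 under each. The 2 higher in the mean were 1 with median scaling, 1 with normexp and 1 without HFD pools 2 and 3 of 4 weeks, which carried epididymis transcripts, and the 3 lower were 6 with array weights and 6 with 2 weeks included. The 10 probes whose effect differed between weeks were 2 without the 2-week arrays. The cause of these shifts was not tested, except that the last has fewer arrays.

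Leaving out each array number in turn leaves 2 arrays per group. It gave 11 to 13 weekly calls higher and 2 to 3 lower in liver, 5 to 6 means higher and 2 to 3 lower, 0 probes with an effect that differed between weeks and 0 to 2 with a slope. In EAT it gave 0 to 2 weekly calls higher and 1 to 8 lower after 2 weeks, 0 to 2 means higher and 1 to 7 lower, and 4 to 8 probes with an effect that differed between weeks.

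Replicate numbers did not pair the arrays (r over 0.1 in 4 of 15 pairs in EAT and 4 of 24 in liver). With the replicate number as a block, liver had 18 weekly calls higher and EAT 4 lower, the 1 lost being Srebf1 at 24 weeks (adjusted p = 0.0524). In MAT, 1 pool per diet and week limits what can be shown.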
